A study of Mus musculus with 16 samples.

Results

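The replication-dependent histone genes are the 68 genes of the deposited count table whose symbols begin with Hist1h, Hist2h, Hist3h or Hist4h, of 23479 genes in all. Membership was set by symbol alone, but the family was picked for study with earlier results of these data known. By the protein they encode, 6 are genes for the linker histone H1, 18 for H2a, 19 for H2b, 12 for H3 and 13 for H4. The H2b genes include Hist3h2bb-ps, whose name marks it as a pseudogene.

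RNA-seq libraries were made from spleen CD4 T cells of C57BL/6 mice. The cells were enriched by immunomagnetic negative selection, so that beads retained the unwanted cells and the CD4 T cells stayed unlabelled. The control group was 5 libraries from mice without tumours (day 0). The day 7 group was 7 libraries and the day 14 group 4 libraries, from mice that had received Eu-Myc lymphoma cells by transplant that many days earlier. Eu-Myc cells are B-lineage lymphoma cells in which an immunoglobulin heavy chain enhancer drives Myc; the labels give the recipients no transgene, and they give no age or sex. The series' design text counts its groups in mice, and a library is treated here as 1 animal. The design sets tumour-bearing mice at an early and a late time against tumour-free mice.

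Histones package DNA: pairs of H2A, H2B, H3 and H4 form the nucleosome core, and H1 binds the linker DNA at its edge. The genes studied here are transcribed mainly in S phase, when the cell doubles its DNA and needs new histones, so their mRNA is a common marker of dividing cells. Most of these mRNAs carry no poly(A) tail and end in a short stem-loop that is bound by the protein Slbp, whereas replacement histones such as H3.3 (H3f3a, H3f3b) are made throughout the cell cycle from polyadenylated mRNA. In resting CD4 T cells the replication-dependent genes are largely silent, and they come on when T cells divide after activation.

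All 68 genes were placed by GENCODE's annotation of mouse build GRCm38. On chromosome 13, 23 lie in chr13:21715763-22043676 and 31 in chr13:23531050-23934851, 10 lie in chr3:96219865-96270132, 3 in chr11:58948920-58956830, and Hist4h4 stands alone at chr6:136801553-136804415. The stem-loop was searched in the GENCODE M21 transcripts as a stem of 6 bases, a loop of 4 and the 6 bases that pair with the stem. The stem had to open with GG and end in T, and the loop had to read TNTN, with N any base. These letters are therefore set by the search. Of the 68 genes, 46 held such a stretch, 16 bases in all. The sequences below show why H4 can be told from the other classes at this site: all 12 H4 genes with a stem-loop had the stem GGCCCT (10 genes) or GGTCCT (2 genes), and all 34 genes of the other classes had GGCTCT. Capitals mark the stem-loop, with up to 5 bases on each side, on the strand of the mRNA.
Hist1h1e: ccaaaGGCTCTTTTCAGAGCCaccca
Hist1h2ab: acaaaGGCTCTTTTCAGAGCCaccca
Hist1h2bb: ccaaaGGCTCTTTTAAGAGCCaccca
Hist1h3g: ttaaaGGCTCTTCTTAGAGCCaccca
Hist1h4d: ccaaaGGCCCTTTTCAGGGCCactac
Hist1h4b: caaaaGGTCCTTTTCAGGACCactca
Of the 46 annotated transcripts with a stem-loop, 23 ran on for at most 100 bases past it and 23 for more than 100 bases, among them those of Hist1h1c, Hist1h1d, Hist1h1e, Hist1h4c, Hist1h4d, Hist3h2a and Hist4h4.

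Promoters were read from RefSeq (GRCm38.p6) as 250 bases before to 50 after the gene start, and 62 of the 68 genes had one. One promoter of each class is shown, each of a gene whose levels are described below. Capitals mark the H1 motif AAACACA, the CCAAT box, the TATA motif TATAAA, the octamer ATTTGCAT and the H4 motif GGTCC, or their reverse complements; both strands were searched, and overlapping matches of different motifs each counted.
Hist1h1e, chr13:23622509-23622808, minus strand: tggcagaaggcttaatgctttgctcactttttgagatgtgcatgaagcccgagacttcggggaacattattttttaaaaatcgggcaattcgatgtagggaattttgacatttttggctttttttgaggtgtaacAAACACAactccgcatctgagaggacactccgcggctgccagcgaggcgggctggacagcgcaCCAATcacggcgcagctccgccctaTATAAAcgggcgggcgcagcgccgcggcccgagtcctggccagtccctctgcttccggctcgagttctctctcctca
Hist1h2ak, chr13:21753863-21754162, minus strand: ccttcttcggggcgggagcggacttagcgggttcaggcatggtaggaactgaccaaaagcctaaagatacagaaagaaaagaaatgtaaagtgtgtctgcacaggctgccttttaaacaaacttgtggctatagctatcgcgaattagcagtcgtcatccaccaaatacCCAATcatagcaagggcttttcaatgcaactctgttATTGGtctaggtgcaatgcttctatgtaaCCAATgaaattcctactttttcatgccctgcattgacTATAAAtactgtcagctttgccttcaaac
Hist1h2bb, chr13:23746484-23746783, plus strand: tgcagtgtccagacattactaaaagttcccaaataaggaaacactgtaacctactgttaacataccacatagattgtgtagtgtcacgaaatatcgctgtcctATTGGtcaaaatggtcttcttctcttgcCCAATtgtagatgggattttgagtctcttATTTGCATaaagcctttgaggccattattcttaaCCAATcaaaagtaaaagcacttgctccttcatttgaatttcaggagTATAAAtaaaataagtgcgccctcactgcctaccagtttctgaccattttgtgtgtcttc
Hist2h3b, chr3:96268404-96268703, plus strand: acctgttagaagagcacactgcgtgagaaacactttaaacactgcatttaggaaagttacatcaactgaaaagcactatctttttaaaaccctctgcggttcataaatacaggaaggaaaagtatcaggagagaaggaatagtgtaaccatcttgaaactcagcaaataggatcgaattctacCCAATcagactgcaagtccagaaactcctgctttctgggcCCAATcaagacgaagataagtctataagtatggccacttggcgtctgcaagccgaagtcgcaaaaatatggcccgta
Hist1h4d, chr13:23581318-23581617, plus strand: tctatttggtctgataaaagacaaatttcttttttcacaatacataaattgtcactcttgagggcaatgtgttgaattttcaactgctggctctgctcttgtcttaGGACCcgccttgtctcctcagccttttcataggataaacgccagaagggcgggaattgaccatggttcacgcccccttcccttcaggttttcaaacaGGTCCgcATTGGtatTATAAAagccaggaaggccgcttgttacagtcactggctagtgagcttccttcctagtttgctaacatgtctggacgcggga
The H1 promoters held AAACACA in 5 of 6 cases, against 7.18% of all 32851 RefSeq promoters. CCAAT stood in the promoters of all 50 matched genes of the H1, H2a, H2b and H3 classes but in 3 of 12 H4 promoters, against 37.4% of all promoters. ATTTGCAT, the octamer known from H2b promoters, was found in 7 of 16 H2b and 7 of 18 H2a promoters, against 1.74% of all. None of the H1, H3 or H4 promoters searched held it. H2a and H2b genes that start close together on opposite strands share part of these windows, so the H2a and H2b counts are not independent. Both genes held the octamer in Hist1h2aa and Hist1h2ba, Hist1h2ae and Hist1h2bg, and Hist1h2ah and Hist1h2bk. The letters GGTCC occurred in 11 of 12 H4 promoters, against 45.5% of all. TATAAA was found in 35 of the 62, against 13.6% of all. A match is a description of these letters in this window, and a missing match says nothing of a factor.

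Between 14493764 and 27340070 reads per library were assigned to genes, and 9739 to 97746 of these, or 0.0672% to 0.435%, fell in the histone genes. Close copies make single genes uncertain: 8 of the 68 shared over 90% of their 50-base windows with another annotated gene, 5 shared none, and 24 overlapped an exon of another annotated gene. The strand setting of the counting was not given in the sources used here, so reads of such genes cannot be told apart. Cd4 stood at 781.3 to 1802 CPM (gene reads brought to a common total per library and scaled by TMM, a factor that evens out composition) and Cd3e at 762.4 to 1875 CPM, while Cd8a did not exceed 3.03 CPM and Cd8b1 stood at 5.44 to 16.5 CPM. Libraries stood apart in several ways other than their histone values. The sum of 7 CD4 T cell genes was lowest in control library 2, at 2721 CPM, against 3011 to 5966 CPM in the others. Summed over 11 genes, macrophage, monocyte and dendritic cell transcripts were 265.4 and 696.7 CPM in control libraries 1 and 2. They were 137.1 CPM in day 14 library 4 and 21.3 to 67.2 CPM in the others. Y-linked transcripts stood at 351.7 to 432.5 CPM in 5 libraries, namely libraries 1 and 2 of the controls, 6 and 7 of day 7, and 4 of day 14, against at most 3.55 CPM in the other 11, and day 14 library 1 was low in both these and Xist. Summed over 13 neutrophil and precursor genes such as Mpo, the levels were 22.4 to 2642 CPM in controls, 2.18 to 43.7 CPM at day 7 and 24.4 to 1744 CPM at day 14, with control libraries 1 and 2 and day 14 library 4 at 893.5 CPM or more.

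Summed over all 68 genes, histone transcripts had their lowest mean at day 7. The sum averaged 2183 ± 1336 CPM in controls (SD, n = 5), 1019 ± 297.6 CPM at day 7 (n = 7) and 1813 ± 896.2 CPM at day 14 (n = 4). The 5 control libraries read 2427, 4419, 1218, 1472 and 1379 CPM, the day 7 libraries 942, 691, 648, 1163, 953, 1286 and 1448 CPM, and the day 14 libraries 988, 2012, 1261 and 2990 CPM. The groups overlapped, and control library 2 alone held the highest level of 49 of the 57 genes tested, while day 7 libraries 2 and 3 held the lowest of 15 and 27 genes. In each group the libraries high in Y-linked transcripts had the highest histone sums. Control libraries 1 and 2 and day 14 library 4 also had the most neutrophil and the most macrophage, monocyte and dendritic cell transcripts. Control library 2 had the lowest CD4 T cell sum. The part of these differences in the histone levels was not tested. Without control libraries 1 and 2 the remaining 3 controls averaged 1356 ± 128.2 CPM, which was below the day 14 mean and above the day 7 mean. These are bulk samples, in which fewer dividing cells and less histone RNA per cell cannot be told apart.

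**Figure D1:**
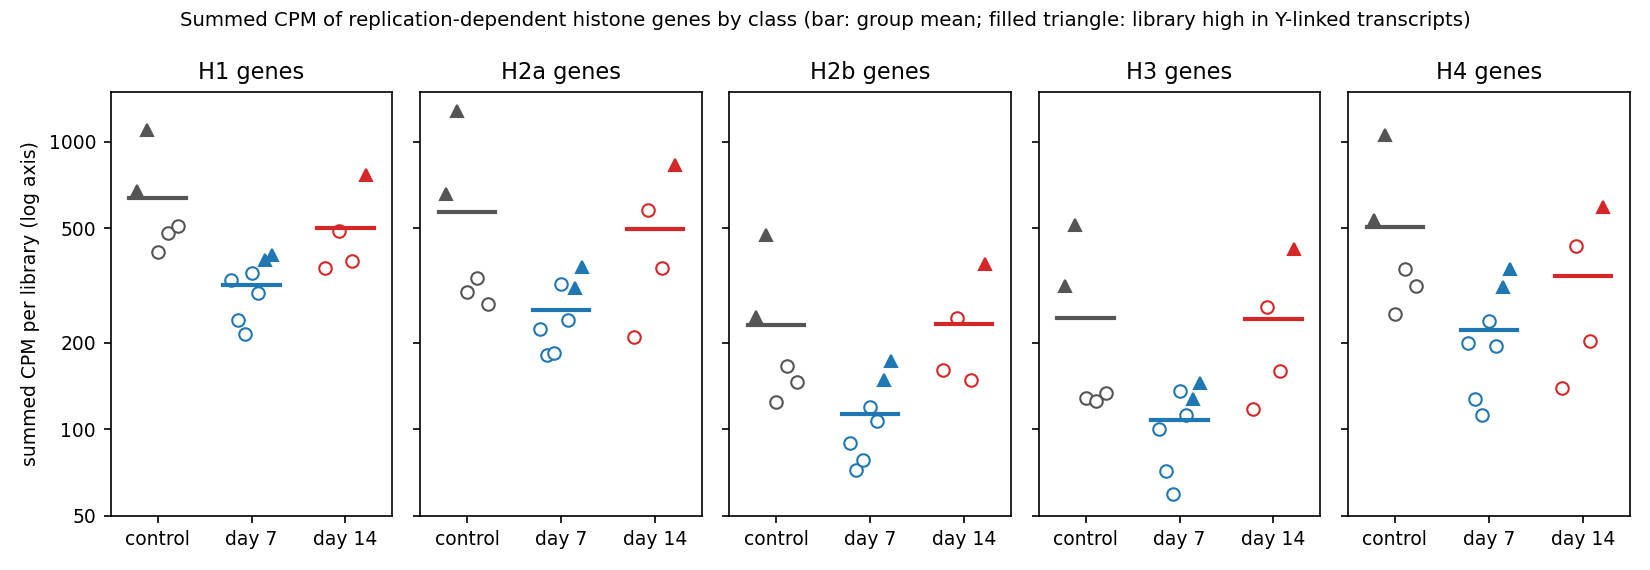
Summed CPM of the H1, H2a, H2b, H3 and H4 genes in each library on a log axis, with a bar at each group mean and filled triangles for the 5 libraries high in Y-linked transcripts. In every class the highest control points are libraries 1 and 2, and the day 7 mean is the lowest of the 3 means.

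All 5 class means were lower at day 7 than in controls. The day 7 mean was 0.4995 of the control mean for H1, 0.458 for H2a, 0.487 for H2b, 0.442 for H3 and 0.438 for H4. The day 14 mean was 0.790 of the control mean for H1, 0.872 for H2a, 1.00 for H2b, 0.993 for H3 and 0.679 for H4. Set against day 7, the day 14 mean was 1.58 times as high for H1, 1.90 for H2a, 2.06 for H2b, 2.25 for H3 and 1.55 for H4. Without control libraries 1 and 2 the day 7 ratios to control were 0.677 for H1, 0.860 for H2a, 0.774 for H2b, 0.831 for H3 and 0.714 for H4. The day 14 ratios to control were then all above 1, at 1.07 for H1, 1.64 for H2a, 1.59 for H2b, 1.87 for H3 and 1.11 for H4. These ratios of means carry the spread of the sums, and neither they nor the differences between classes were tested. H1 genes took 24.4% to 37.1% of a library's summed histone CPM and H4 genes 14.0% to 24.9%, with the lowest H4 share, 14.0%, in day 14 library 1.

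Against controls, day 7 cells had lower levels of 56 of the 57 histone genes tested, where 43.8% of all genes were lower, and no single gene passed the adjusted threshold. The fit was edgeR's quasi-likelihood test over all 16 libraries and 18430 genes, with Benjamini-Hochberg adjustment at 0.05, and it called 0 histone genes. Across all genes it called 0% lower and 0.0109% higher. At an unadjusted p below 0.05, 42 of the 57 were lower and 0 higher, where the same rule took 12.7% of all genes as lower and 8.43% as higher. The median log2 change was -1.10 over the 57, against 0.07 over all genes. DESeq2 called 21 histone genes lower, where it called 8.26% of the genes it tested lower, and limma-voom called 0. By class the count at an unadjusted p was 5 of 5 for H1, 9 of 13 for H2a, 11 of 16 for H2b, 8 of 11 for H3 and 9 of 12 for H4. Without control library 5 edgeR called 20 histone genes lower, where it called 5.58% of all genes lower. Without day 14 library 4 it called 2 lower, where it called 0.306% of all genes lower. Without control library 2 the median was -0.69 and 20 genes were lower at an unadjusted p below 0.05. Without control libraries 1 and 2 the median was -0.37, and 49 of the 57 were still lower. Of these fewer-library values, 4 had an unadjusted p below 0.05, and the lowest adjusted p was 0.313. The share of all genes at an unadjusted p was not counted in the fits on fewer libraries.

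The H1 genes Hist1h1d and Hist1h1e had the smallest p values of the 57 at day 7. Hist1h1e (chr13:23620629-23622558), a main somatic H1 gene that alone held 12.9% of all histone reads, had 96.6, 129.8 and 177.4 CPM as its lowest, median and highest day 7 values, against 306.9, 444.0, 189.2, 207.3 and 236.6 CPM in the controls. Every day 7 library was below every control library, the only one of the 57 genes without overlap here, where 0.982% of all genes were lower without overlap. The log2 change was -1.01 (SE 0.23, adjusted p = 0.0709 by edgeR). Hist1h1e overlaps exons of Hist1h2be and Gm11398 in the annotation, so reads of the overlap cannot be told apart. Hist1h1d, another somatic H1, had 20.6, 32.5 and 64.6 CPM as its lowest, median and highest day 7 values, against 121.2, 247.0, 59.1, 82.5 and 77.4 CPM in the controls. Day 7 library 7 overlapped control library 3, and the log2 change was -1.70 (SE 0.37, adjusted p = 0.0709). Hist1h1a had the lowest log2 change of the class, -2.09 (SE 0.61), with 3.03 to 26.4 CPM at day 7 and 11.8 to 119.8 CPM in the controls. Hist1h1c (chr13:23738808-23740367) had the smallest, -0.41 (SE 0.14), with 123.9 ± 23.8 CPM at day 7 (n = 7) and 164.9 ± 20.6 CPM in the controls (SD, n = 5).

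Core histone genes at day 7 had log2 changes from -2.11 to 0.01, and H1 genes from -2.09 to -0.41. Hist1h2ag came next by p value, with a log2 change of -1.96 (SE 0.54, adjusted p = 0.0777 by edgeR). It is a low gene, at 0.395 to 3.18 CPM at day 7 and 2.62 to 11.4 CPM in the controls. Hist1h2ak, which held 10.7% of histone reads, had 62.9, 84.3 and 127.4 CPM as its lowest, median and highest day 7 values, against 299.7, 614.2, 128.9, 109.6 and 88.2 CPM in the controls. Its 2 high controls are libraries 1 and 2, and the other 3 lay within or just above the day 7 range. The log2 change of Hist1h2ak was -1.41 (SE 0.42), and Hist1h2ah had the lowest of the H2a class, -2.11 (SE 0.72).

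Among H2b genes the log2 changes ran from -1.53 (SE 0.72) for Hist1h2bk to -0.12 (SE 0.24) for Hist2h2be, and Hist2h2bb, the H2b gene with the highest mean CPM, stood at -1.12 (SE 0.39). Hist1h2bg, next in mean CPM, had 4.13 to 21.6 CPM at day 7, against 18.7 to 51.0 CPM in the controls, and a log2 change of -1.30 (SE 0.38). H3 genes ranged from -1.96 (SE 0.57) for Hist1h3d to 0.01 (SE 0.42) for Hist2h3c1, the one gene of the 57 that was not lower. Hist1h3e and Hist1h3f, the H3 genes with the highest mean CPM, had log2 changes of -1.09 (SE 0.33) and -0.98 (SE 0.28). Among H4 genes Hist1h4b had the lowest change, -2.06 (SE 0.71), and Hist4h4 the smallest, -0.31 (SE 0.34). Hist1h4d, Hist1h4c and Hist1h4h, highest in mean CPM of their class, were at -1.10 (SE 0.33), -1.17 (SE 0.34) and -1.30 (SE 0.48).

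**Figure D2:**
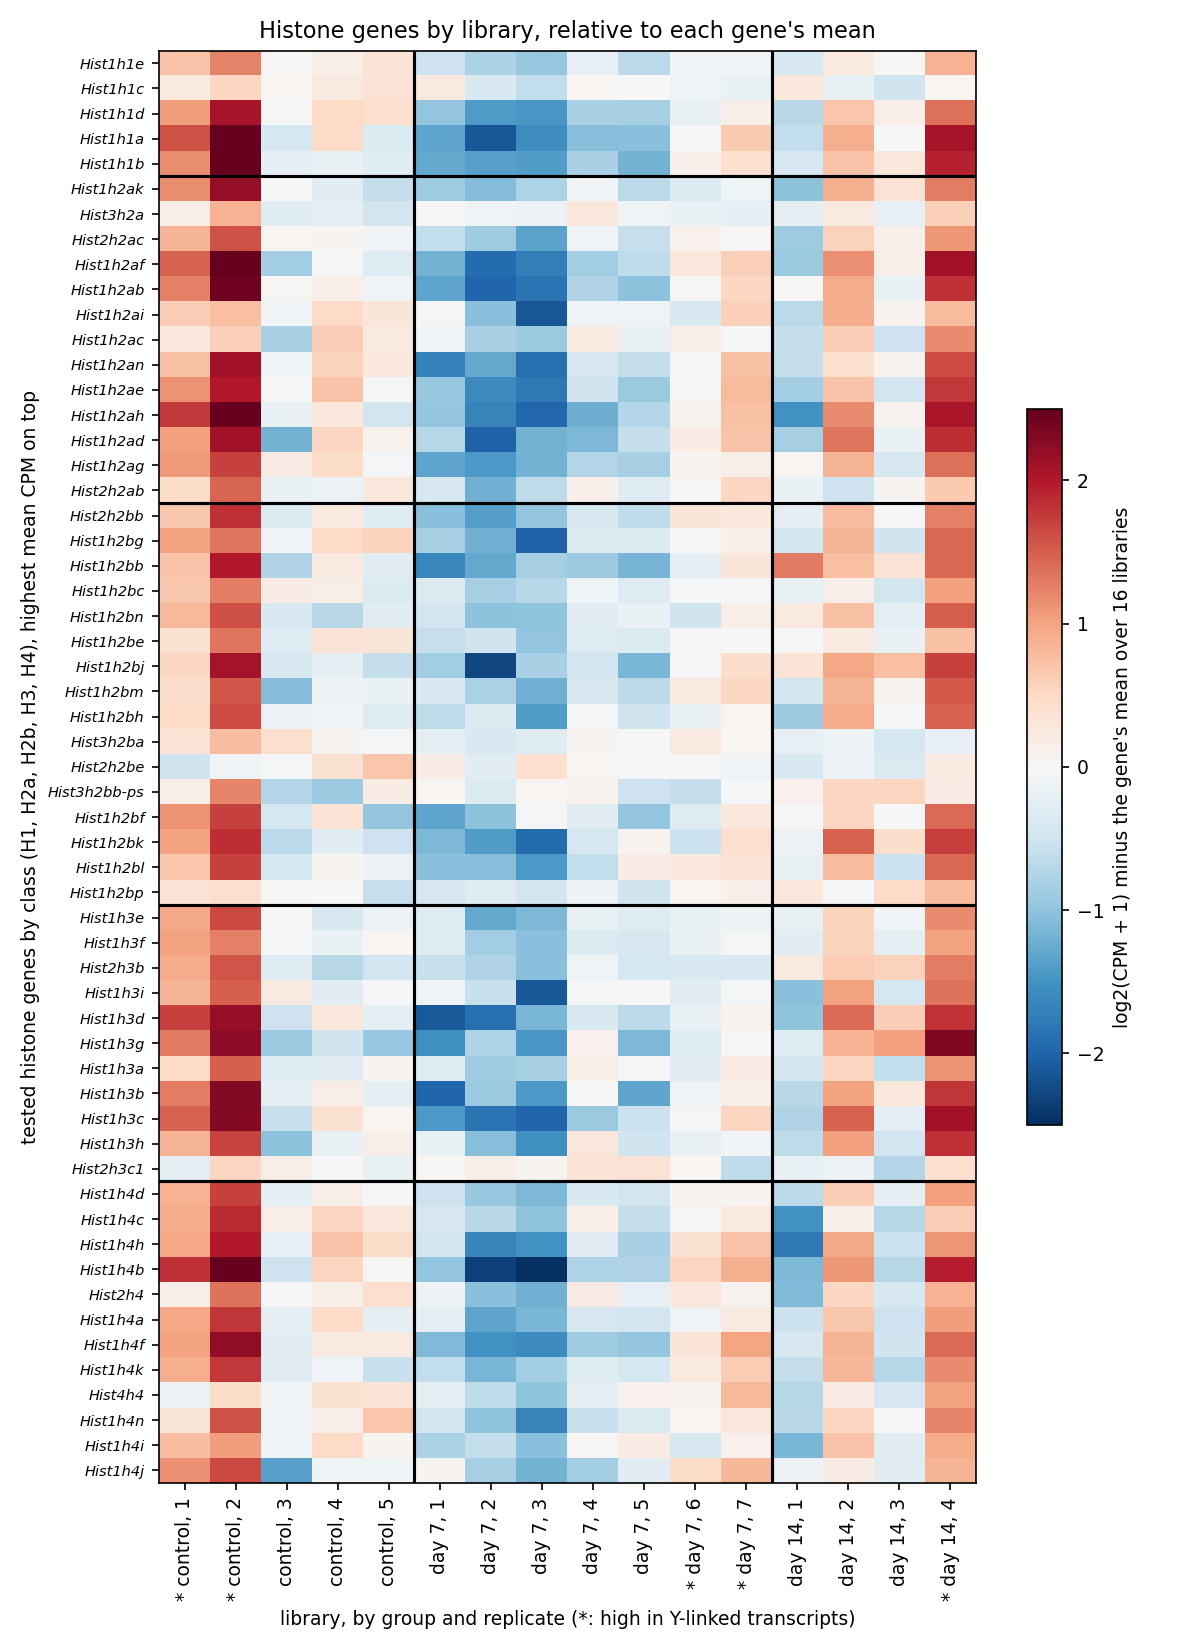
Heat map of the 57 tested histone genes in 16 libraries: colour gives log2(CPM + 1) minus the gene's mean over all libraries, with colours held at the ends of the scale, and stars mark libraries high in Y-linked transcripts. Control library 2 is red in most rows and day 7 libraries 2 and 3 are blue, while Hist1h1c, Hist3h2a, Hist3h2ba and Hist2h2be stay pale.

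Against day 7, day 14 cells had higher levels of 54 of the 57 histone genes, where 59.4% of all genes were higher. By edgeR 0 passed the adjusted threshold, where 0.412% of all genes were called higher and 0.553% lower. At an unadjusted p below 0.05, 34 of the 57 were higher and 0 lower, against 6.54% of all genes higher and 8.27% lower. The median log2 change was 1.03 over the 57, against 0.12 over all genes. DESeq2 called 6 histone genes higher, where it called 2.71% of the genes it tested higher, and limma-voom called 0. With only these 2 groups in the fit edgeR called 7, where it called 1.86% of all genes higher. By class the count at an unadjusted p was 4 of 5 for H1, 9 of 13 for H2a, 11 of 16 for H2b, 8 of 11 for H3 and 2 of 12 for H4. Without day 14 library 4 the median was 0.56, and 7 of the 57 genes were higher at an unadjusted p below 0.05. Without day 14 library 2 this count was 21. The share of all genes at that p was not counted in these fits. Without control library 2 edgeR called 5 histone genes higher, where it called 1.17% of all genes higher. It called 1 each without control library 3, control library 4 and day 7 library 7. There it called 0.408%, 0.396% and 0.271% of all genes higher.

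Hist1h2bb (chr13:23746734-23747241), an H2b gene with the octamer and the TATA motif shown above, had the lowest p. It had 41.1, 27.9, 21.03 and 45.8 CPM at day 14, against 4.58, 8.11 and 20.1 CPM as the lowest, median and highest of day 7. All 4 day 14 libraries were above all 7 day 7 libraries. The log2 change was 1.804 (SE 0.44, adjusted p = 0.0597 by edgeR). Over the alternatives tried, its adjusted p lay between 0.000243, in the 11 libraries low in Y-linked transcripts, and 0.238, without day 14 library 4. Day 14 library 1, which had the lowest histone sum of its group, held the second highest Hist1h2bb value of the group.

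Hist2h3b (chr3:96268654-96269141), an H3 gene of the chromosome 3 cluster, had 24.8, 33.3, 32.0 and 52.3 CPM at day 14, against 9.65, 15.2 and 19.6 CPM as the lowest, median and highest of day 7. The groups did not overlap, and the log2 change was 1.28 (SE 0.35, adjusted p = 0.0828 by edgeR). Windows shared with other genes made up 79.7% of its transcript, so its reads may in part be those of a copy. Hist1h3g had the largest log2 change of the 57, 2.05 (SE 0.61, adjusted p = 0.110), with 6.62, 16.3, 18.3 and 46.7 CPM at day 14, against 2.29, 4.53 and 9.24 CPM as the lowest, median and highest of day 7. Day 14 library 1 lay within the day 7 range. Without overlap, 3 of the 57 genes were higher at day 14, Hist1h2bb, Hist2h3b and the pseudogene Hist3h2bb-ps, where 1.77% of all genes were.

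In the H1 class the log2 changes between day 14 and day 7 ran from 0.06 (SE 0.15) for Hist1h1c to 1.67 (SE 0.64) for Hist1h1a, and Hist1h1d and Hist1h1e stood at 1.28 (SE 0.39) and 0.71 (SE 0.24). H2a genes ran from 0.20 (SE 0.21) for Hist3h2a to 1.76 (SE 0.75) for Hist1h2ah, with Hist1h2ak at 1.12 (SE 0.44). H2b genes ran from -0.23 (SE 0.26) for Hist2h2be to 2.03 (SE 0.76) for Hist1h2bk, and H3 genes began at -0.30 (SE 0.46) for Hist2h3c1. H4 genes had the lowest class median, 0.73, where the other classes had 1.11 to 1.28. Hist1h4b had the largest H4 change, 1.26 (SE 0.75), and Hist1h4c the smallest, 0.10 (SE 0.36). Whether H4 differed from the other classes was not tested.

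No histone gene was called between day 14 cells and controls, and the changes lay on both sides of 0. By edgeR 0 of 57 were called, where 1.33% of all genes were called higher and 1.80% lower, and limma-voom called 0 as well. DESeq2 also called 0 of them, with 4.41% of the genes it tested called higher and 3.15% lower. The median log2 change was -0.20, against 0.12 over all genes, and 43 genes were lower and 14 higher, where 42.3% of all genes were lower. At an unadjusted p below 0.05, 3 were lower and 0 higher, against 11.8% and 10.5% of all genes. The histone median was above 0 in several alternatives, given here beside the median of all genes tested in the main fit. It was 0.29 against 0.18 without control library 2, and 0.59 against 0.26 without control libraries 1 and 2. It was below that of all genes without day 14 library 1, at 0.08 against 0.12. The same held with a covariate for the Y-linked level, at 0.11 against 0.14. In the 11 libraries low in Y-linked transcripts it was 0.10 against 0.15, again below.

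The 3 genes with an unadjusted p below 0.05 between day 14 and control were Hist3h2ba, Hist1h4c and Hist1h1c. Hist3h2ba (chr11:58948920-58949533), an H2b gene outside the main clusters, had 5.64, 6.01, 4.62 and 5.62 CPM at day 14, against 8.65, 11.98, 9.13, 6.97 and 6.49 CPM in the controls. All 4 day 14 libraries were below all 5 controls, where 2.85% of all genes were lower without overlap. The log2 change was -0.66 (SE 0.23, adjusted p = 0.108 by edgeR), and it is the lowest of the H2b class. Hist1h4c (chr13:23697635-23698454), an H4 gene, had 17.6, 57.2, 31 and 79.2 CPM at day 14, against 99.6, 189.5, 58.2, 74.4 and 62.7 CPM in the controls. Day 14 library 4 overlapped the controls, and the log2 change was -1.07 (SE 0.40, adjusted p = 0.130). For Hist1h1c it was -0.36 (SE 0.17, adjusted p = 0.214), with 128.8 ± 29.0 CPM at day 14 (n = 4) and 164.9 ± 20.6 CPM in the controls (SD, n = 5).

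All 12 H4 and all 5 H1 genes tested were lower at day 14 than in controls, while 8 of 16 H2b genes were higher. In the H1 class the log2 changes lay between -0.42 (SE 0.70) for Hist1h1a and -0.19 (SE 0.61) for Hist1h1b. In the H2a class they lay between -0.66 (SE 0.69) for Hist2h2ab and 0.11 (SE 0.38) for Hist1h2ac. The highest H2b value was 0.49 (SE 0.48), for Hist1h2bp, and the H3 values lay between -0.29 (SE 0.48) for Hist2h3c1 and 0.47 (SE 0.66) for Hist1h3g. Among H4 genes the highest was -0.05 (SE 0.40), for Hist4h4. The H1 and H4 directions turned without control libraries 1 and 2, where 4 of 5 H1 genes and 8 of 12 H4 genes were higher at day 14. Their median log2 changes there, 0.26 for H1 and 0.23 for H4, were below the 0.31 of all 19144 genes tested in that fit. In the 11 libraries low in Y-linked transcripts, 3 of 5 H1 genes and 9 of 12 H4 genes were lower.

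Comparing only the 11 libraries low in Y-linked transcripts, a choice made after the data were seen, left 3 controls, 5 day 7 and 3 day 14 libraries. Within them every day 7 histone sum, 648 to 1163 CPM, was below every control sum, 1218 to 1472 CPM, and the 3 day 14 sums lay on both sides of the controls at 988, 2012 and 1261 CPM. At day 7, edgeR called 6 histone genes lower, where it called 0.537% of 18793 genes lower. These were the H1 genes Hist1h1a, Hist1h1b, Hist1h1d and Hist1h1e, 1 H2a gene, Hist1h2ab, and 1 H4 gene, Hist1h4f. Hist1h1d fell to 27.25 ± 5.94 CPM in these day 7 libraries (n = 5), against 73.0 ± 12.3 CPM in the 3 controls (SD, n = 3), a log2 change of -1.46 (SE 0.23, adjusted p = 0.00471). Hist1h1e fell as well, with a log2 change of -0.82 (SE 0.16, adjusted p = 0.0202), and the median over the 57 genes was -0.75, against 0.12 over all genes. Among the 5 libraries high in Y-linked transcripts, the 2 day 7 sums, 1286 and 1448 CPM, were below the 2 control sums, 2427 and 4419 CPM, and the 1 day 14 sum was 2990 CPM.

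In the same 11 libraries, 14 histone genes were called higher at day 14 than at day 7, where 1.59% of all genes were. They were 3 H1, 3 H2a, 3 H2b, 4 H3 and 1 H4 genes, and Hist1h2bb had the lowest p, with a log2 change of 2.14 (SE 0.25, adjusted p = 0.000243). Without control libraries 1 and 2, and with all other libraries, 12 were called, where 2.03% of all genes were, and 8 genes were in both sets: Hist1h1b, Hist1h1d, Hist1h2ab, Hist1h2bb, Hist1h2bj, Hist1h3d, Hist1h3g and Hist2h3b. Against controls, Hist1h2bb and Hist2h3b were called higher at day 14 in the 11 libraries, where 1.65% of all genes were, with log2 changes of 1.08 (SE 0.28, adjusted p = 0.0421) and 1.00 (SE 0.23, adjusted p = 0.0300). Without control libraries 1 and 2 it was Hist2h3b and Hist1h3g, where 2.38% of all genes were called higher, with log2 changes of 1.28 (SE 0.25, adjusted p = 0.0121) and 2.27 (SE 0.56, adjusted p = 0.0308). A covariate for the Y-linked level gave 23 genes lower at day 7 than in controls and 28 higher at day 14 than at day 7, where it called 2.54% and 2.94% of all genes.

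**Figure D3:**
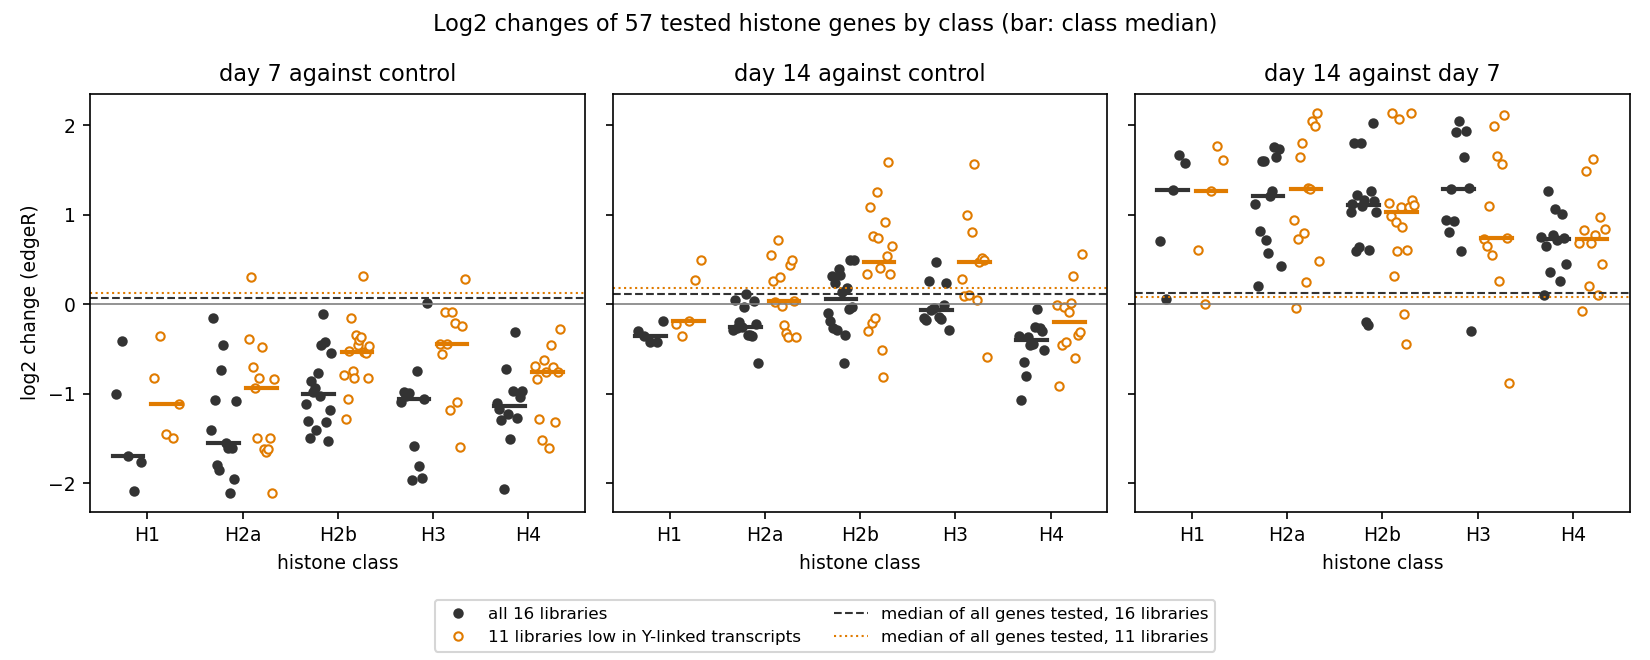
Log2 changes of the 57 tested histone genes by class in the 3 comparisons, from all 16 libraries (filled) and from the 11 libraries low in Y-linked transcripts (open), with bars at class medians and broken lines at the median of all genes tested. Nearly all points lie below 0 for day 7 against control and above 0 for day 14 against day 7, and the day 14 against control points lie on both sides of 0.

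Genes within the family varied to very different degrees. Over the 16 libraries the SD of log2(CPM + 1) had a median of 0.83 over the 57 tested histone genes, against 0.37 over all genes tested. It was highest for Hist1h4b, 1.56, and lowest for Hist3h2ba, Hist1h1c, Hist2h2be, Hist2h3c1 and Hist3h2a, at 0.32 to 0.35. Hist2h3c1 averaged 1.67 CPM, where the added 1 narrows the spread, and its highest over lowest CPM was 4.83, against 2.24 to 2.59 for the other 4. Of these, 4 lie outside chromosome 13, and the 3 genes of the chromosome 11 cluster had a median log2 change of -0.42 for day 7 against control, where the chromosome 13 clusters had -1.13 and -1.31 and the 7 tested genes of the chromosome 3 cluster had -1.03. Hist3h2a (chr11:58954685-58956830), which held 4.81% of histone reads, had 84.3, 138.0, 60.5, 63.4 and 53.8 CPM in the controls, 63.8, 69.2 and 91.4 CPM as its lowest, median and highest day 7 values, and 63.5, 88.9, 64.8 and 113.9 CPM at day 14. Its groups overlapped fully, and its log2 changes were -0.15 (SE 0.20) at day 7 and 0.05 (SE 0.23) at day 14 against control. Hist3h2a shares exons with Trim17 in the annotation, so its reads may include those of that gene.

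Members also differed by how their 3' end is annotated. The 18 tested genes whose annotated transcript ends within 100 bases of the stem-loop had a median SD of 1.09 and a median log2 change of -1.50 for day 7 against control. The 21 genes whose transcript runs on further had a median SD of 0.69 and a median log2 change of -1.01. The 18 with no stem-loop found had 0.86 and -1.07, and their annotated transcripts may stop before the site. For day 14 against day 7 the medians were 1.43, 0.71 and 1.14. The groups overlapped widely, from -2.06 to -0.54 in the first and from -1.96 to 0.01 in the second at day 7, and the mean level of the genes differed too, with a median of 9.53 CPM in the first and 21.1 CPM in the second. The difference was not tested.

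H2a and H2b genes often stand head to head, and 13 such pairs had starts at most 500 bases apart, 10 of them with both genes tested. At day 7 against control both genes of all 10 pairs were lower, and the H2a gene minus its H2b partner differed by -1.01 to 0.45 on the log2 scale. The widest gap was in Hist1h2an, -1.55, and Hist1h2bp, -0.54. In the chromosome 3 pair Hist2h2ac was at -1.08 and Hist2h2be at -0.12. At day 14 against day 7 both genes had the same sign in 9 of 10 pairs, the exception being that same pair, with 0.81 for Hist2h2ac and -0.23 for Hist2h2be. At day 14 against control the signs were the same in 4 of 10 pairs. The counts for the first 2 comparisons are read beside the 56 of 57 genes that were lower and the 54 of 57 that were higher.

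Testis-type genes had few counts and did not pass the filter; 3 counts amount to 0.112 to 0.1997 CPM in a library. Hist1h1t, the H1 gene of male germ cells, had counts in 12 of 16 libraries and at most 1.49 CPM. Hist1h2aa and Hist1h2ba, germ cell H2a and H2b genes that stand head to head, did not exceed 0.121 and 1.40 CPM. Of the 11 genes that did not pass the filter on low counts, 5 had no count in any library: Hist1h2ao, Hist1h2ap, Hist1h2bq, Hist1h2br and Hist2h2aa1. A count of 0 allows up to 0.112 to 0.1997 CPM. All 5 shared 88.5% to 97.3% of their windows with another annotated gene. Reads that aligned at more than 1 place were not assigned to genes, and their part in these zeros was not tested.

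None of 18 tested genes for transcription and 3' end processing of histone mRNA passed the test in any of the 3 comparisons. Their median log2 changes were -0.11 for day 7 and -0.15 for day 14 against control. Across all genes the test called 0.0109% higher and 0% lower at day 7 against control. It called 1.33% and 1.80% at day 14 against control, and 0.412% and 0.553% at day 14 against day 7. A count of 0 in a short list is therefore close to the share over all genes. Slbp, which binds the stem-loop, had 37.4, 47.4 and 51.3 CPM as its lowest, median and highest day 7 values, against 74.2, 101.6, 56.7, 49.0 and 40.3 CPM in the controls, a log2 change of -0.47 (SE 0.17, adjusted p = 0.117 by edgeR). The Slbp change was -0.06 without control libraries 1 and 2. None of 26 chaperone and acetylation genes passed, with medians of -0.38 and -0.37. Of 12 tested replication-independent histone genes, 0 passed at day 7 and 1 at day 14. That gene, H3f3a, which encodes the replacement histone H3.3, fell at day 14 to 65.2, 110.2, 94.1 and 94.7 CPM, against 172.8, 177.1, 145.3, 135.1 and 131.5 CPM in the controls. All 4 values were below all 5 controls, with a log2 change of -0.74 (SE 0.14, adjusted p = 0.0131 by edgeR). The adjusted p was 0.0815 when only these 2 groups were fitted. At day 7 its log2 change against control was -0.57 (SE 0.12, adjusted p = 0.0709). The other H3.3 gene, H3f3b, had a log2 change of -0.50 (SE 0.22, adjusted p = 0.182) at day 14 against control. At day 14 against control the variant genes H2afz, H2afx and H1f0 stood at -0.22 (SE 0.23), -0.15 (SE 0.45) and 0.26 (SE 0.21). They were at 0.24, 0.79 and 0.70 without control libraries 1 and 2, and H1f0 was called higher (adjusted p = 0.0262 by edgeR).

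The 4 libraries with the highest histone sums, control 1 and 2 and day 14 libraries 2 and 4, also had the 4 highest sums of DNA replication and of mitosis genes. Of 31 DNA replication genes 30 were lower at day 7 than in controls, with a median of -1.07. Of all genes 43.8% were lower, with a median of 0.07. The test called 0 of the 31, and it called 0% of all genes lower. All 22 mitosis genes were lower too, with a median of -1.71, and 0 passed. At day 14 against day 7 the medians of the replication and mitosis genes were 0.64 and 1.47, against 0.12 over all genes. Again 0 passed, where 0.412% of all genes were called higher. Mcm5, a subunit of the replicative helicase, had log2 changes of -1.07 (SE 0.33) at day 7 and -0.62 (SE 0.39) at day 14 against control, and Ccne2, the cyclin E2 gene, -1.32 (SE 0.46) and -0.41 (SE 0.53). Mki67, a proliferation marker, had -2.12 (SE 0.58) and -0.36 (SE 0.67). The day 7 changes were -0.11 for Mcm5, -0.17 for Ccne2 and -0.10 for Mki67 without control libraries 1 and 2. In the 11 libraries low in Y-linked transcripts they were -0.34, -0.32 and -0.59. At day 14 all 3 signs turned without control libraries 1 and 2, to 0.34 for Mcm5, 0.74 for Ccne2 and 1.66 for Mki67 (adjusted p = 0.0468 for Mki67 by edgeR).

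The histone sum spanned 6.82-fold over the 16 libraries, the DNA replication sum 4.65-fold and the mitosis sum 18.6-fold. Control library 2 was first in all 3 sums and day 7 library 3 was last in the histone sum. Histone over replication CPM lay between 0.783 in day 7 library 2 and 1.71 in day 14 library 4, a 2.18-fold range. Histone over mitosis CPM lay between 0.837 in control library 2 and 3.37 in control library 5, a 4.02-fold range. Controls 4 and 5 had 1472 and 1379 CPM of histone transcripts with 524.5 and 409.4 CPM of mitosis transcripts, while day 14 library 3 had 1261 CPM of histone transcripts with 1250 CPM of mitosis transcripts. B-lineage transcripts, which would mark carried-over lymphoma cells, summed over 10 genes to 11.5 to 79.0 CPM in controls, 8.02 to 28.3 CPM at day 7 and 12.8 to 27.2 CPM at day 14. Erythroid and precursor transcripts summed over 13 genes to 83.5 to 1595 CPM in controls, 44.6 to 314.3 CPM at day 7 and 69.1 to 447.6 CPM at day 14, with the globin genes at 0 in all libraries. The erythroid list included Tfrc, whose part in that sum was not given apart. The part of lymphoma, erythroid or precursor cells in the histone levels was not tested.

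**Figure D4:**
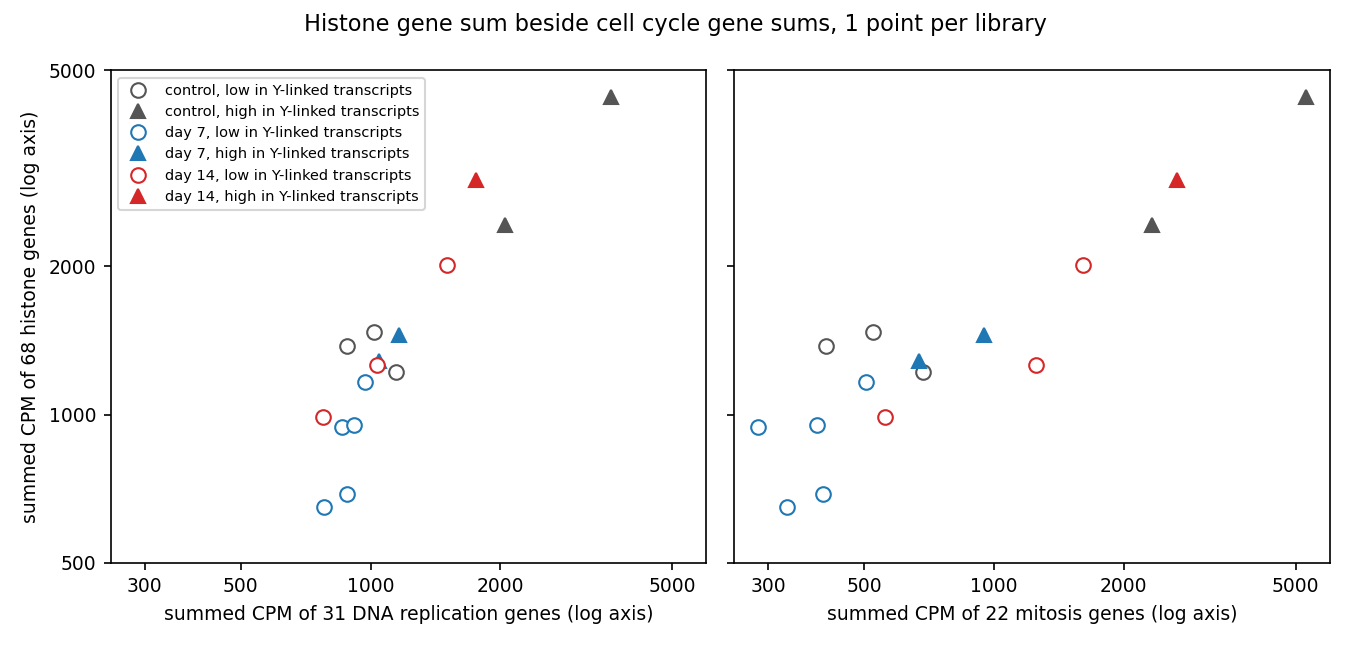
Summed CPM of the 68 histone genes against summed CPM of 31 DNA replication genes (left) and 22 mitosis genes (right), both on log axes, with 1 point per library. Most day 7 libraries lie at the lower left and control library 2 lies at the upper right, and controls 4 and 5 have more histone transcripts than day 14 library 3 at a lower mitosis sum.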

How the data were processed

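Per the labels' protocols, a Macherey-Nagel kit gave the RNA, and a NuGEN mouse kit made libraries from 100 ng of it. Counts of reads per gene were deposited by the authors; HTSeq 0.6.1, build mm10, cutadapt 1.8.1 and bcl2fastq 2.20.0.422 are listed per the submitters' processing notes, and other settings are not given in the sources used here. The 5 closing lines that name no gene held 57.6% to 77.9% of a library's total (no feature, 47.1% to 69.8%) and were left out. Counts were tested with edgeR 4.0.16 in R 4.3.3 (TMM, filterByExpr, quasi-likelihood F test, Benjamini-Hochberg threshold 0.05) over all 16 libraries, and DESeq2 1.42.0 and limma 3.58.1 (voom) were alternatives. The SE is the log2 change over the square root of F. The code was tested on simulated data. Named genes were the 3 of highest mean CPM in each class, those called (or the 3 of lowest p) in each comparison, the highest and lowest log2 change per comparison and class, testis-type genes, Hist3h2a, Hist3h2ba and Hist4h4, genes at 0 throughout, 9 fixed genes set beside them and called genes of the pathway lists; others were chosen after their values were seen. The histone genes and gene lists were chosen with earlier results of these data known. Intervals of 0 counts use 3 counts per library and cover counting error only.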

Additional observations from a re-analysis of the deposited data

Results flagged for a closer look

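Each set of values was 1 named histone gene, 1 class sum or the sum of all classes, in 1 group of 4 to 7 libraries. In 3 of 108 sets, a single library lay far from the others by Dixon's criterion, where chance gives about 1 in 20. Hist3h2a had 91.4 CPM in day 7 library 4, and the nearest day 7 library had 75.3 CPM. Hist2h3c1 had 0.675 CPM in day 7 library 7, and the nearest day 7 library had 1.66 CPM. Hist2h2ab had 5.83 CPM in control library 2, and the nearest control had 2.43 CPM.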

How the results depend on the processing

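All genes called numbered 2 at day 7 against control, 577 at day 14 against control and 178 at day 14 against day 7. At day 7 they were 1575 with DESeq2, 4 with only the 2 groups fitted, 35 with a replicate block, 649 with a Y-linked covariate, 0 without control libraries 1 and 2 and 138 in the 11 libraries low in Y-linked transcripts. At day 14 against control they were 381 with no filter, 1564 with DESeq2, 1003 with limma-voom, 4 with only the 2 groups, 46 with the replicate block and 942 without control libraries 1 and 2. At day 14 against day 7 they were 681 with DESeq2, 712 with only the 2 groups, 28 with the replicate block, 1000 with the covariate, 838 without control libraries 1 and 2 and 556 in the 11 libraries. Histone genes called at day 7 were 21 with DESeq2, 1 with the replicate block (Hist1h2bg), 23 with the covariate and 6 in the 11 libraries. Against control, day 14 gave 2 without control libraries 1 and 2 and 2 in the 11 libraries. Against day 7, day 14 gave 1 with library totals, 6 with DESeq2, 7 with only the 2 groups, 28 with the covariate, 12 without control libraries 1 and 2 and 14 in the 11 libraries. The Mki67 change at day 14 against control, -0.36 over all libraries, was 1.66 without control libraries 1 and 2 and 1.23 in the 11 libraries. The cause of these shifts was not tested.

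Leaving out 1 library at a time gave 0 to 1455, 65 to 1458 and 25 to 531 genes called in these comparisons, and 0 to 20, 0 to 0 and 0 to 5 histone genes. At day 7 against control, 20 histone genes were called lower without control library 5, where 5.58% of all genes were. Without day 14 library 4 it was 2, where 0.306% of all genes were. At day 14 against day 7, 5 were called higher without control library 2, where 1.17% of all genes were. The median histone change lay between -1.28 and -0.69, between -0.61 and 0.29, and between 0.56 and 1.22. Library totals moved the median of all genes to 0.32 at day 14 against control and 0.29 against day 7, with 699 genes higher and 100 lower, and 150 higher and 41 lower, where TMM gave 246 and 331, and 76 and 102. Of 13 same-numbered pairs of libraries, 3 had a correlation of deviations above 0.1 (-0.34 to 0.29), so the numbers were not taken to pair the samples. The 11-library choice was made after seeing the data.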
